A study of Mus musculus with 25 samples.

Results

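The 42 genes described here encode proteins of blood coagulation, fibrinolysis and complement, and were taken by gene symbol from the 24358 genes of the table. All 42 had a successful estimate in every condition. They were placed in 3 classes by where each protein is known to be made. These are 27 genes mainly made by hepatocytes, 10 made by the liver and also by macrophages, fibroblasts, endothelium or other cells, and 5 made by macrophages (C1qa, C1qb and C1qc), fibroblasts (Serping1) and adipocytes (Cfd). RNA came from sperm that swam out of incised cauda epididymides, and was sequenced after removal of ribosomal RNA by a protocol that reads all RNA types. Mothers of C57BL/6J (C57) or FVB/N (FVB) mice, both inbred strains, received 300 mg/kg/day of the phthalate plasticizer DEHP (D300), or corn oil alone as the vehicle (CTL), from embryonic day 9 to 19. First-generation (F1) sons gave the C57BL/6J conditions C57.CTL.F1 (vehicle) and C57.D300.F1 (DEHP), and in FVB/N the vehicle condition FVB.CTL.F1 and its exposed counterpart FVB.D300.F1. The condition C57.D300.F2 holds the next C57BL/6J generation, sired by exposed F1 males with unexposed females. The study's design had no vehicle condition of that generation. Where 5 values are given without names, they follow the order vehicle C57BL/6J F1, exposed C57BL/6J F1, C57.D300.F2, vehicle FVB/N and exposed FVB/N. The labels give an age of 14 weeks, and each condition pools 5 libraries into 1 value per gene. The 10 libraries behind both C57BL/6J F1 conditions came from earlier work, and the other 15 were made later, so a difference between C57.D300.F2 or FVB/N and these conditions cannot be told apart from a difference between the sets of libraries.

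Coagulation is a chain of proteases that ends in thrombin, which cuts the 3 fibrinogen chains into fibrin, and plasmin dissolves the clot again. Complement is a second protease chain, started by C1q, by mannose-binding lectins or by the alternative pathway, which meet at C3 and end in the C5 to C9 membrane attack complex. Hepatocytes secrete most of these proteins into plasma, under promoters bound by HNF1, HNF4A, C/EBP and FOXA factors. C1q is an exception among plasma complement proteins, since macrophages and dendritic cells are its main source, and C1 inhibitor and C3 are also made by many stromal and epithelial cells. Spermatozoa are nearly silent in transcription, and RNA of other cells in a sperm suspension is read together with theirs.

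To show the regulatory sequence of the fibrinogen genes, of the complement genes Hc and C3, and of a macrophage gene, the bases just before the transcription start are printed here, 5′ to 3′ on the gene's strand, from RefSeq on GRCm38.p6. Capitals mark matches, on either strand, to the letters GTTAAT for HNF1, CAAAGNNCA for HNF4A, TTGCNNAA for C/EBP and TGTTTNC for FOXA factors, or TATAAA for the TATA box. These spellings were settled after several had been looked at.
Fga, chr3:83025903-83026075, plus strand: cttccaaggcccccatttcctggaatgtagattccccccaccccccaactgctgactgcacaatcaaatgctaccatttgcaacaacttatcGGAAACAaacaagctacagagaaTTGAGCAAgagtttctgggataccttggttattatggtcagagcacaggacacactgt
Fgb, chr3:83049864-83050113, minus strand: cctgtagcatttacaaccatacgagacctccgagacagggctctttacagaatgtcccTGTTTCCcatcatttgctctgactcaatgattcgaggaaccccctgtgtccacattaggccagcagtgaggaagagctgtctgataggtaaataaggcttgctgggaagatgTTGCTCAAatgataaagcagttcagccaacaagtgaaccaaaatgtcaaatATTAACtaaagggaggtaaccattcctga
Fgg, chr3:83007474-83007723, plus strand: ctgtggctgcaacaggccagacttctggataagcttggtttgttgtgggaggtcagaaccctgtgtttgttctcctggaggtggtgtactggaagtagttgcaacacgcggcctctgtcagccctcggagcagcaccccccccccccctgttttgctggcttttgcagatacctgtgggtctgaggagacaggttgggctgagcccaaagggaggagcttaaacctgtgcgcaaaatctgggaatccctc
Hc, chr2:35061439-35061662, minus strand: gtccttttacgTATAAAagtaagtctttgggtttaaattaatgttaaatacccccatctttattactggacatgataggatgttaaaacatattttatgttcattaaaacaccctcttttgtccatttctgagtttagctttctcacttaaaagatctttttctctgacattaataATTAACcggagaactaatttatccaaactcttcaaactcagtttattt
C3, chr17:57228137-57228386, minus strand: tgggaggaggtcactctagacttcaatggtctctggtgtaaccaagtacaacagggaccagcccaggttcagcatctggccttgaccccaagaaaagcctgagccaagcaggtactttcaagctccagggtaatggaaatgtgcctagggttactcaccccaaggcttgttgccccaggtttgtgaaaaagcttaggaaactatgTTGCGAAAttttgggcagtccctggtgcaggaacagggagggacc
C1qb, chr4:136886201-136886450, minus strand: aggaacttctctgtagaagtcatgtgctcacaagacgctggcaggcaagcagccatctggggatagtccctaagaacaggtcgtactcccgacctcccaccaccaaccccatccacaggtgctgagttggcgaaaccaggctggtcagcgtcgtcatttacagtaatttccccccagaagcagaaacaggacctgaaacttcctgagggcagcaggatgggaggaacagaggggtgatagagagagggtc
The Fga and Hc windows were cut where an annotated transcript begins, which left out the Fga matches to the HNF1 and HNF4A letters. The Fgg and C1qb windows held no match to any of the 5 motifs, which says only that these letters are absent there.

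Promoter windows of 250 upstream bases were found for 32 of the 42 genes, 24 of the liver class, 5 of the mixed class and 3 of the macrophage and stroma class. The HNF1 letters occurred in 7 of 24 liver-class genes (Fga, Fgb, F13b, Hc, C8a, C8b and Vtn), against 7.49% of all 27025 genes. They were in 0 of 5 mixed and in 0 of 3 macrophage and stroma genes. A gene with more than 1 window counted when any of them matched. HNF4A letters were in 5 of 24 liver-class genes (Fga, F7, F9, Kng2 and C8g) and in 6.29% of all genes. The C/EBP letters were in 7 of 24, in the C3 window among the mixed class, and in 10.8% of all. FOXA letters were in 8 of 24, in the Pros1 and C6 windows of the mixed class, and in 19.9% of all, and the TATA letters in 3 of 24 and in 14.3% of all. These counts used all 250 bases, and in some genes an annotated transcript begins inside them. Matches that lay past such a start include those of Fga to the HNF1 and HNF4A letters. The FOXA matches of Klkb1 and C6 were also among them. The Kng2 window, and the C8g window with the HNF4A match, lay wholly inside the annotated gene. Their matches thus lay past its start too. That left F7 and F9 as the genes with HNF4A letters before the annotated start. A match is a description of letters and was not tested as a binding site. Entries for Plg, Kng1, Proc, Serping1, C1qa, C2, C4b, Cfb, Cfi and Masp1 were missing.

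The estimated counts of all genes summed to between 6921688 in C57.D300.F2 and 8602900 in C57.CTL.F1. Markers of sperm and late germ cells (8 genes, among them Prm2 and Akap4) summed to 83801 counts in vehicle C57BL/6J F1, 70309 after DEHP, 28117 in C57.D300.F2, 6862 in vehicle FVB/N and 8143 in exposed FVB/N, with none at 0. Markers of hepatocytes (9 genes, among them Alb and Apoa2) summed to 227562, 215272, 6023, 1483 and 1032 counts in the same order, also with none at 0. The hepatocyte markers were thus above the sperm markers in both C57BL/6J F1 conditions, and below them in the other 3 conditions. How much this RNA contributes to each value of the 42 genes was not tested. Since these are bulk samples, fewer cells of a type and less RNA per cell cannot be told apart. All values are scaled by Cuffdiff, and scaling to equal totals instead moved the median log2 ratio of all genes most, from -0.04 to 0.27, for C57.D300.F2 against C57.CTL.F1. Each value has no replicate check, and the only error given is the SD of a count under the authors' Cuffdiff model, called model SD here, which is not a measured spread of the 5 libraries. A gene counts as past the threshold when it differed by 2 log2 units or more, after adding 1 to each count, with at least 10 counts in the higher of the 2 conditions.

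**Figure D1:**
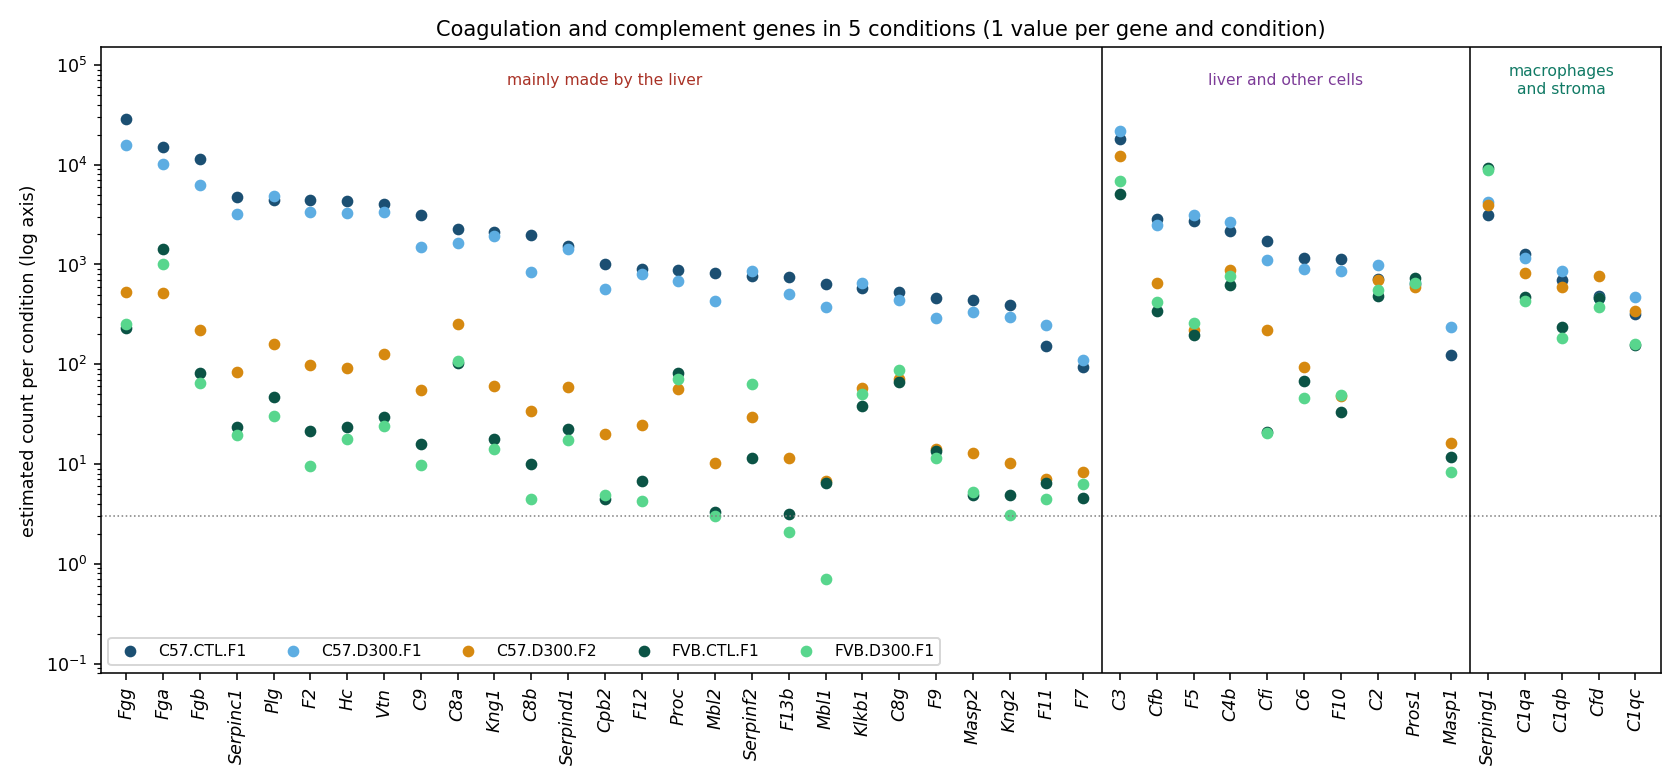
Estimated counts of the 42 genes (y axis, log scale) in each of the 5 conditions (coloured points), with genes on the x axis grouped by class and ordered by their count in C57.CTL.F1. The dotted line is 3 counts, taken as the limit of detection. In the liver class the C57.CTL.F1 and C57.D300.F1 points of every gene lie above its other 3 points, whereas the 5 points of Pros1, C2, Serping1, Cfd, C1qa and C1qc stay within 2 log2 units of each other.

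The 27 liver-made factors were abundant in both C57BL/6J F1 conditions and scarce in the other 3. They summed to 97043 counts in vehicle C57BL/6J F1, 64142 after DEHP, 2634 in C57.D300.F2, 2313 in vehicle FVB/N and 1914 in exposed FVB/N. For every gene of the class, each of the first pair of values exceeded each of the other 3. C57.D300.F2 thus held 2.71% of the sum in C57.CTL.F1, and FVB.CTL.F1 held 2.38%. The class of macrophage and stromal genes summed to 5866, 7168, 6484, 10676 and 10063 counts in the same order. Its sum was therefore highest in FVB/N, where that of the liver class was lowest. Serping1 alone held 87.6% of this sum in vehicle FVB/N and 88.6% in exposed FVB/N. The mixed class summed to 31357, 35051, 15609, 7589 and 9562 counts in the order of conditions used above. It was above both other classes in C57.D300.F2 and between them in the other 4 conditions.

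Compared with vehicle C57BL/6J F1, all 27 liver-class genes were past the threshold as lower in C57.D300.F2 (median log2 ratio -5.12, range -6.37 to -2.86). Of the mixed class 6 of 10 were past it (median -2.49), and of the macrophage and stroma class 0 of 5 (median 0.11). Together these are 33 of 42 genes lower and 0 higher, beside 3.61% of all 17114 genes tested that were lower and 0.584% that were higher, with a median of -0.040 over all genes. The model SD of the difference was exceeded by all 33. Against C57.D300.F1, the other condition of the exposed lineage, 32 of 42 genes were lower in C57.D300.F2 and 0 higher. The background was 3.3% lower and 0.333% higher of 17133 genes. These 32 were the 27 liver-class genes (median -4.76) and 5 of the mixed class, and 31 of them differed by more than the model SD.

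In FVB/N without DEHP, the same numbers of genes of each class were past the threshold. FVB.CTL.F1 was past the threshold against C57.CTL.F1 for 33 of 42 genes as lower and 0 as higher, with background shares of 8.88% lower and 1.44% higher among 17086 genes. The liver class had 27 of 27 genes lower and a median of -6.55, beside a median of -0.032 over all genes. The mixed class had 6 of 10 lower (median -3.17) and the macrophage and stroma class 0 of 5 (median -1.03). That median is negative although the sum of the class was higher in FVB/N, because 3 of its 5 genes are C1q chains, which were lower, while Serping1 held most of the sum. Between the exposed F1 conditions, FVB.D300.F1 was lower than C57.D300.F1 for 34 of 42 genes and higher for 0, where the background was 7.67% lower and 2.65% higher of 17377 genes. The liver-class median was -6.56, with all 27 genes lower, and C1qb was the single gene of the macrophage and stroma class past the threshold.

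**Figure D2:**
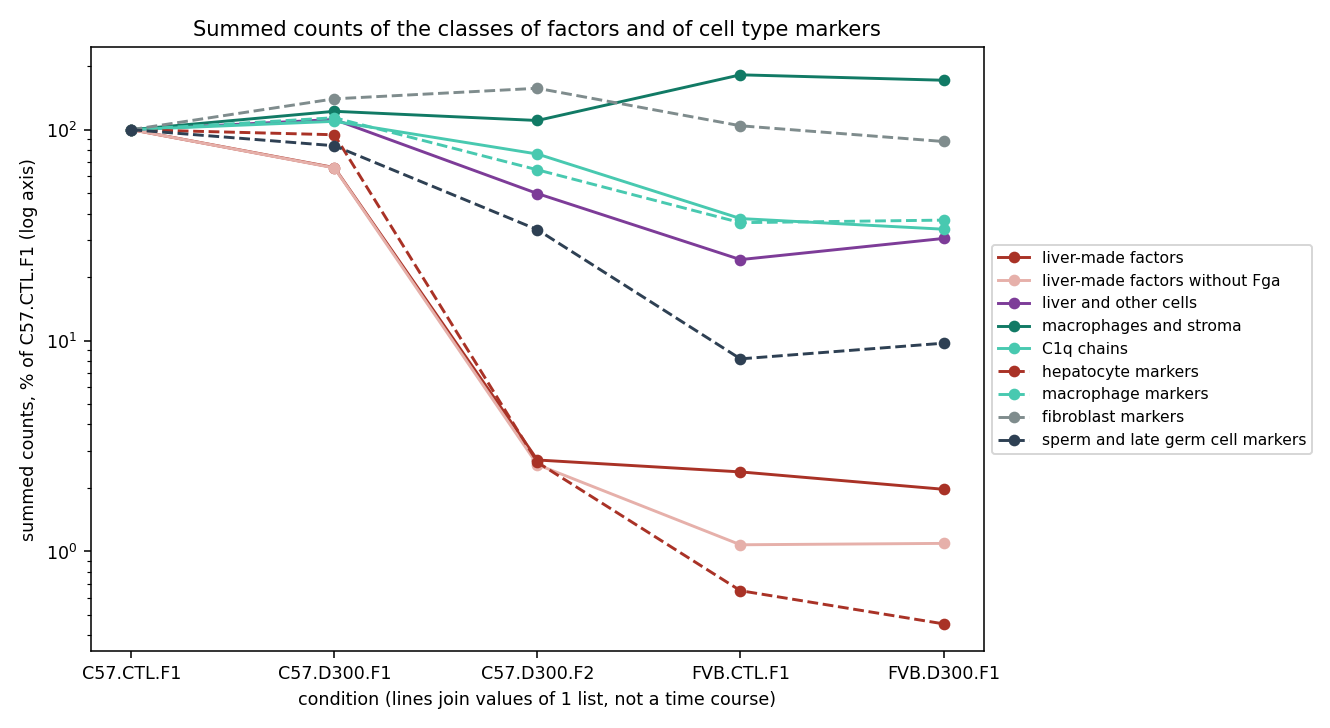
Summed counts of each class of factors (solid lines) and of cell type markers (dashed lines), as % of C57.CTL.F1 on a log axis, for the 5 conditions on the x axis. The liver-made factors and the hepatocyte markers drop to 2.71% and 2.65% in C57.D300.F2, and the C1q chains stay close to the summed macrophage markers. The class of macrophages and stroma lies at 182% in FVB.CTL.F1, where Serping1 holds 87.6% of its sum.

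The hepatocyte markers moved with the liver-made factors, since relative to vehicle C57BL/6J F1 they stood at 94.6% after DEHP, 2.65% in C57.D300.F2, 0.652% in vehicle FVB/N and 0.454% in exposed FVB/N. Against C57.CTL.F1, all 9 of them were past the threshold as lower both in C57.D300.F2 and in FVB.CTL.F1, and in each comparison 5 of the 9 differed by more than the model SD. The summed liver class came to 0.426 counts per count of the hepatocyte markers in vehicle C57BL/6J F1, 0.298 after DEHP and 0.437 in C57.D300.F2. In FVB/N this ratio was higher, at 1.56 with vehicle and 1.85 with DEHP. Fga held 61.9% of the class sum in vehicle FVB/N and 53.3% in exposed FVB/N. Without Fga the ratios were 0.360, 0.250, 0.351, 0.594 and 0.866 in the order of conditions used above.

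The fibrinogen genes lie next to each other on chromosome 3, with Fgg at chr3:83007724-83015049 and Fga at chr3:83026076-83033627 on the plus strand, and Fgb at chr3:83040141-83049863 on the minus strand (mm10). Their upstream sequences are printed above. Fgg, the gamma chain, had 28951 counts (model SD 27015) in vehicle C57BL/6J F1, 15663 (14857) after DEHP, 528 (152) in C57.D300.F2, 230.0 (58.1) in vehicle FVB/N and 255 (60.2) in exposed FVB/N. Fgb, the beta chain, had 11418, 6243, 218, 81.1 and 65.2 counts. Both chains were lowest in FVB/N, where in the vehicle conditions Fgb was 140.8-fold and Fgg 126-fold below C57BL/6J. Fga, the alpha chain, had 15192 counts (model SD 11264) in vehicle C57BL/6J F1, 10221 (7782) after DEHP, 523 (141) in C57.D300.F2, 1433 (447) in vehicle FVB/N and 1019.6 (267) in exposed FVB/N. Its level in FVB.CTL.F1 was 10.6-fold below C57.CTL.F1 and 2.74-fold above C57.D300.F2, where Fgb and Fgg were 2.69-fold and 2.30-fold below C57.D300.F2.

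Per kb of the longest annotated transcript, Fga stood at 1.96 times Fgb in C57.CTL.F1, 2.41 times in C57.D300.F1 and 3.53 times in C57.D300.F2. The same ratio of levels per kb was 26.0 in vehicle FVB/N and 23.0 in exposed FVB/N. Fgg per kb kept between 5.30 and 6.21 times the level of Fgb in all conditions except FVB.D300.F1, where it was 8.55 times. The level relative to Fgb thus differed more between the FVB/N and C57BL/6J conditions for Fga than for Fgg. The FVB/N ratios rest on 81.1 and 65.2 Fgb counts. F13b, the carrier subunit of the factor that crosslinks fibrin, had 757, 509, 11.6, 3.13 and 2.07 counts. In FVB/N it was 242-fold below C57BL/6J among vehicle F1, and at least 170-fold below among exposed F1 when the value under the limit of detection is set to 3 counts.

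**Figure D3:**
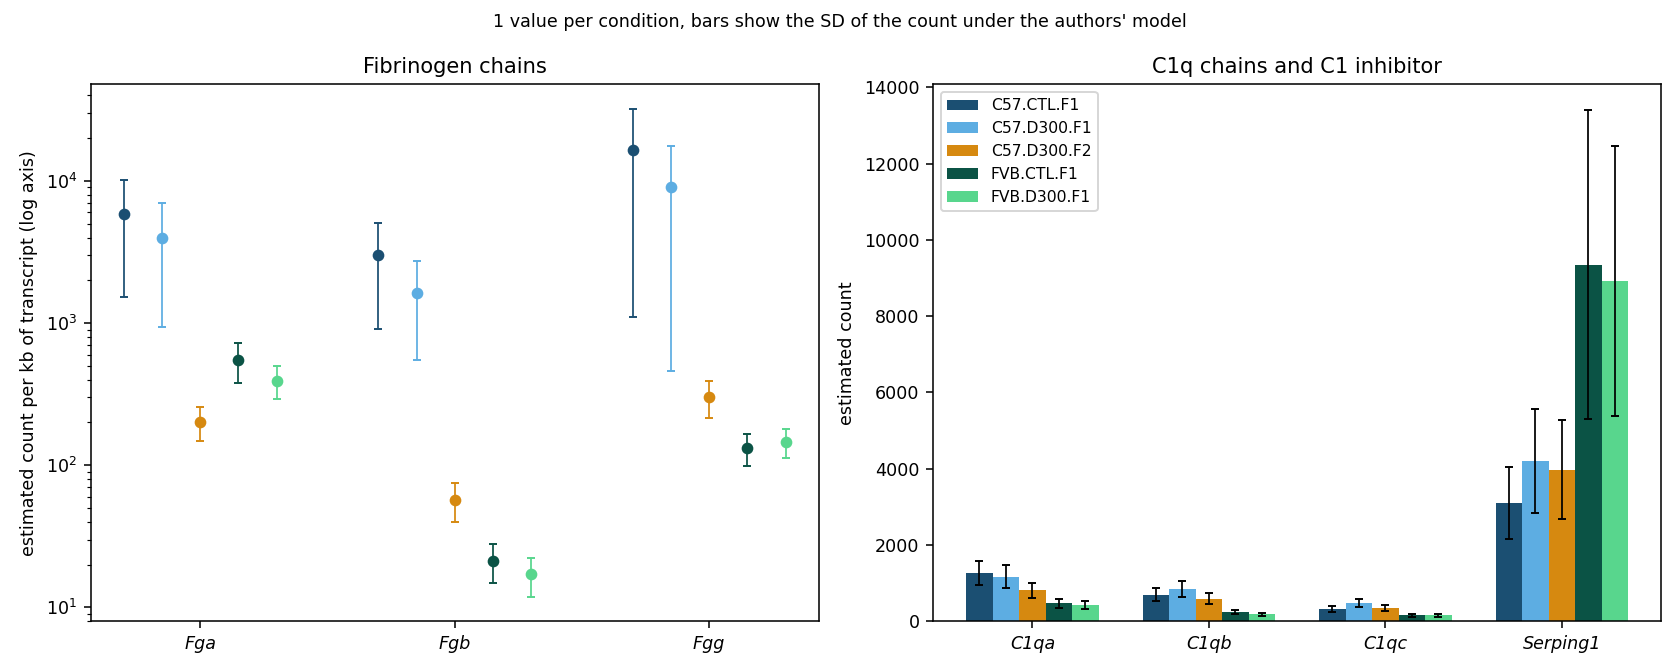
Left, counts per kb of transcript of the fibrinogen chains Fga, Fgb and Fgg on a log axis. Right, counts of C1qa, C1qb, C1qc and Serping1 on a linear axis from 0. Colours are the 5 conditions, and error bars are the model SD. Fga is the chain that is higher in FVB/N than in C57.D300.F2, and Serping1 is the gene that is higher in FVB/N than in C57BL/6J.

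The vitamin K dependent proteases of the liver class made the same step. The prothrombin gene F2 had 4405 counts in vehicle C57BL/6J F1, 3352 after DEHP, 97.4 in C57.D300.F2, 21.3 in vehicle FVB/N and 9.59 in exposed FVB/N. Between the vehicle conditions it was 206-fold lower in FVB/N, with the largest log2 difference of the class after adding 1 count (-7.62). F9, the factor missing in haemophilia B, had 463, 294, 14.1, 13.6 and 11.4 counts, so that C57.D300.F2 and the FVB/N conditions differed by less than the model SD of each count. F7, which starts clotting together with tissue factor, was the least abundant gene of the class in C57.CTL.F1, with 94.5, 110.0, 8.34, 4.60 and 6.31 counts. F10, its neighbour on chromosome 8 and the protease that makes thrombin, had 1141, 857, 47.9, 33.2 and 49.5 counts. F10 was placed in the mixed class but was 34.3-fold lower in vehicle FVB/N than in vehicle C57BL/6J, against 20.6-fold for F7.

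Among genes of the contact system, which starts clotting on negatively charged surfaces and releases bradykinin, all 5 were below C57.CTL.F1 in C57.D300.F2 and in FVB.CTL.F1. Kng1, a kininogen that yields bradykinin, had 2115 counts in vehicle C57BL/6J F1, 1936 after DEHP, 60.0 in C57.D300.F2, 17.95 in vehicle FVB/N and 14.2 in exposed FVB/N. F12, the factor that activates itself on surfaces, had 895, 797, 24.6, 6.73 and 4.27 counts. Kng2, the second kininogen gene, and F11, the next protease, were at or below 10.3 counts in C57.D300.F2 and in FVB/N. Klkb1, plasma prekallikrein, kept more of its level, with 581, 647, 57.2, 38.4 and 50.8 counts. That is 9.84% of C57.CTL.F1 in C57.D300.F2 and 6.61% in FVB.CTL.F1, where Kng1 was at 2.84% and 0.849%. An exon of the annotated gene Gm45753 overlaps Klkb1 on the same strand, so reads there cannot be given to 1 gene with certainty.

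Of the inhibitors of clotting, Serpinc1 (antithrombin) had 4782 counts in vehicle C57BL/6J F1, 3173 after DEHP, 84.5 in C57.D300.F2, 23.7 in vehicle FVB/N and 19.5 in exposed FVB/N. Serpind1 (heparin cofactor II) had 1549, 1425, 59.8, 22.6 and 17.6 counts, with a model SD above the count in the last 3 conditions. Proc (protein C), which inactivates factors V and VIII, had 880.1, 678, 56.7, 82.1 and 71.2 counts. Proc was, with Fga, 1 of the 2 liver-class genes whose count was higher in FVB.CTL.F1 than in C57.D300.F2. Pros1 (protein S), the cofactor of protein C and a gene with wide expression outside the liver, had 644, 671, 598, 740.0 and 649 counts. Its values in C57.D300.F2 and FVB.CTL.F1, the lowest and the highest, differed by 142 counts with a model SD of 225, so that the cofactor did not share the low levels of the enzyme.

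In the fibrinolytic group, Plg (plasminogen) had 4462 counts in vehicle C57BL/6J F1, 4876 after DEHP, 161 in C57.D300.F2, 46.5 in vehicle FVB/N and 30.4 in exposed FVB/N. Cpb2, a carboxypeptidase that protects fibrin from plasmin, had 1007, 570.2, 20.0, 4.51 and 4.89 counts, with a model SD above the count in the last 3 conditions. Both followed the rest of the liver class. Serpinf2 (alpha-2-antiplasmin), the inhibitor of plasmin, had 765, 852, 29.8, 11.4 and 63.0 counts. It was the only gene among the 42 past the threshold between the FVB/N conditions.

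The terminal complement genes were lower by unequal amounts. Hc, which encodes C5, had 4298 counts in vehicle C57BL/6J F1, 3295 after DEHP, 92.5 in C57.D300.F2, 23.6 in vehicle FVB/N and 17.96 in exposed FVB/N. FVB/N mice are known to carry an Hc allele that yields no functional C5, and the Hc value in FVB/N was 0.550% of that in C57.CTL.F1, between those of F2 (0.485%) and Vtn (0.721%). C9, which forms the pore, had 3141, 1509, 55.7, 16.0 and 9.75 counts. Vtn (vitronectin), which blocks the insertion of the complex into membranes, had 4075, 3391, 126, 29.4 and 24.2 counts. C6, of the mixed class, had 1162, 906, 95.0, 67.8 and 45.9 counts, a smaller step than that of C9.

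The C8 protein holds its alpha, beta and gamma chains in equal proportion, whereas their RNA levels did not keep a common proportion here. C8b had 1997 counts in vehicle C57BL/6J F1, 839 after DEHP, 33.8 in C57.D300.F2, 10.1 in vehicle FVB/N and 4.41 in exposed FVB/N. C8a had 2248, 1633, 253, 102 and 109 counts, and C8g had 524, 444, 71.5, 65.7 and 87.3. Per kb of transcript the level of C8a was 0.697 times that of C8b in C57.CTL.F1, 1.20 times in C57.D300.F1, 4.64 times in C57.D300.F2, 6.25 times in FVB.CTL.F1 and 15.2 times in FVB.D300.F1. The FVB/N ratios rest on 10.1 and 4.41 C8b counts. C8a and C8b lie next to each other on chromosome 4, on opposite strands. C8g overlaps Fbxw5, and C8a overlaps the annotated gene Gm17662. Neither shares an exon on the same strand, and whether their reads enter the C8 counts was not tested.

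The lectins showed the lowest remaining shares in C57.D300.F2, though not in every other condition. Mbl1 and Mbl2, the mannose-binding lectins that recognise microbial sugars, had 636 and 822 counts in vehicle C57BL/6J F1, 373 and 433 after DEHP, and 6.71 and 10.1 in C57.D300.F2. These were 1.05% and 1.23% of C57.CTL.F1, the lowest shares among the 42 genes in C57.D300.F2. With vehicle in FVB/N the counts were 6.46 and 3.30, and with DEHP they were 0.711 and 2.98, both under the limit of 3 counts. Masp2, the protease that these lectins activate, had 439, 334, 12.9, 4.90 and 5.21 counts, with a model SD above the count in C57.D300.F2 and FVB/N. Masp1, a related protease of the mixed class, had 123, 235, 16.2, 11.7 and 8.38 counts.

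Genes of the mixed class differed in how far they followed the liver class. In C57.D300.F2 their shares of C57.CTL.F1 ran from 4.20% (F10) to 98.1% (C2), with Cfb at 22.8% and C4b at 41.3%. F5, the cofactor of activated factor X, had 2739 counts in vehicle C57BL/6J F1, 3167 after DEHP, 218 in C57.D300.F2, 195 in vehicle FVB/N and 257 in exposed FVB/N. In C57.D300.F2 it was thus 12.5-fold below vehicle F1. C3, the protein on which all complement pathways meet, had 18109, 21965, 12174, 5071 and 6791 counts. Compared with C57.CTL.F1 it was 1.49-fold lower in C57.D300.F2 and 3.57-fold lower in FVB.CTL.F1, and neither was past the threshold. C4b and C2, which form the classical C3 convertase, had 2145 and 712 counts in vehicle C57BL/6J F1, 887 and 699 in C57.D300.F2, and 627 and 479.8 in vehicle FVB/N. Cfb, the C2 homologue of the alternative pathway, had 2854, 2479, 652, 344 and 417 counts and was past the threshold in C57.D300.F2 and FVB.CTL.F1 against C57.CTL.F1. The C2 and Cfb loci on chromosome 17 are joined by a readthrough gene model, Gm20547, on the same strand, so their separate counts are uncertain.

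Cfi, the protease that inactivates C3b and C4b, was the member with the largest difference between C57.D300.F2 and FVB/N. It had 1728 counts (model SD 643) in vehicle C57BL/6J F1, 1122 (410) after DEHP, 222 (59.8) in C57.D300.F2, 20.7 (8.54) in vehicle FVB/N and 20.6 (8.12) in exposed FVB/N. The 2 FVB/N values were nearly equal and 10.7-fold and 10.8-fold below C57.D300.F2. No other gene of the mixed class was past the threshold between FVB/N and C57.D300.F2.

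The C1q chains, which recognise antibody complexes and dying cells, differed from the C57BL/6J F1 conditions by less than the liver-made factors. Their sum followed the summed macrophage markers. C1qa had 1266 counts in vehicle C57BL/6J F1, 1166 after DEHP, 813 in C57.D300.F2, 470.0 in vehicle FVB/N and 427 in exposed FVB/N. C1qb had 694, 853, 589, 238 and 184 counts, and C1qc had 319, 477, 345, 155 and 158. All 3 chains were lower in FVB/N than in each C57BL/6J condition, by 2.06-fold to 2.91-fold between FVB.CTL.F1 and C57.CTL.F1. With a log2 ratio of -2.21, C1qb in FVB.D300.F1 against C57.D300.F1 was the only value of the 5 macrophage and stroma genes past the threshold in any of the 8 comparisons. The 3 genes lie within chr4:136880129-136898803 (mm10) in a cluster on the minus strand, and the C1qb upstream sequence printed above held none of the liver-factor letters.

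The summed C1q chains came to 0.331 counts per count of 8 macrophage markers (among them Csf1r and Lyz2) in vehicle C57BL/6J F1, 0.318 after DEHP, 0.393 in C57.D300.F2, 0.346 in vehicle FVB/N and 0.299 in exposed FVB/N. The range was thus 0.299 to 0.393, while the sum of the macrophage markers itself ranged from 2498 to 7856 counts. Single markers did not share 1 direction. Against C57.CTL.F1, 4 of them were lower in C57.D300.F2 and 4 higher. Lyz2 fell from 3486 to 1113 counts, and Mrc1 rose from 913 to 1206. Markers of Kupffer cells, the resident macrophages of the liver (Clec4f, Vsig4 and Timd4), summed to 437, 355, 36.0, 37.2 and 55.7 counts. Their sum stood at 8.24% of C57.CTL.F1 in C57.D300.F2, where the C1q sum stood at 76.6%. The Kupffer markers were unequal there, from 3.33% for Clec4f to 39.6% for Timd4, and none exceeded 16.8 counts.

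Serping1, the C1 inhibitor, which blocks C1r, C1s, factor XII and kallikrein, had 3099 counts (model SD 951) in vehicle C57BL/6J F1, 4208 (1360) after DEHP, 3979 (1289) in C57.D300.F2, 9347 (4055) in vehicle FVB/N and 8918 (3532) in exposed FVB/N. It was the most abundant of the 42 genes in both FVB/N conditions, by count and per kb. The log2 ratio of FVB.CTL.F1 to C57.CTL.F1 was 1.59, below the threshold, and the difference was 6248 counts with a model SD of 4165. Fibroblast markers (6 genes, among them Col1a1 and Dcn) summed to 31983, 44789, 50253, 33371 and 28107 counts. Serping1 therefore came to 0.0969, 0.0940 and 0.0792 counts per marker count in the C57BL/6J conditions, and to 0.280 and 0.317 in FVB/N. Cfd (factor D, adipsin), the activator of the alternative pathway and an adipocyte product, had 488, 464, 759, 465 and 376 counts, each below its own model SD (1004.6 to 1417), and its differences can therefore not be read.

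**Figure D4:**
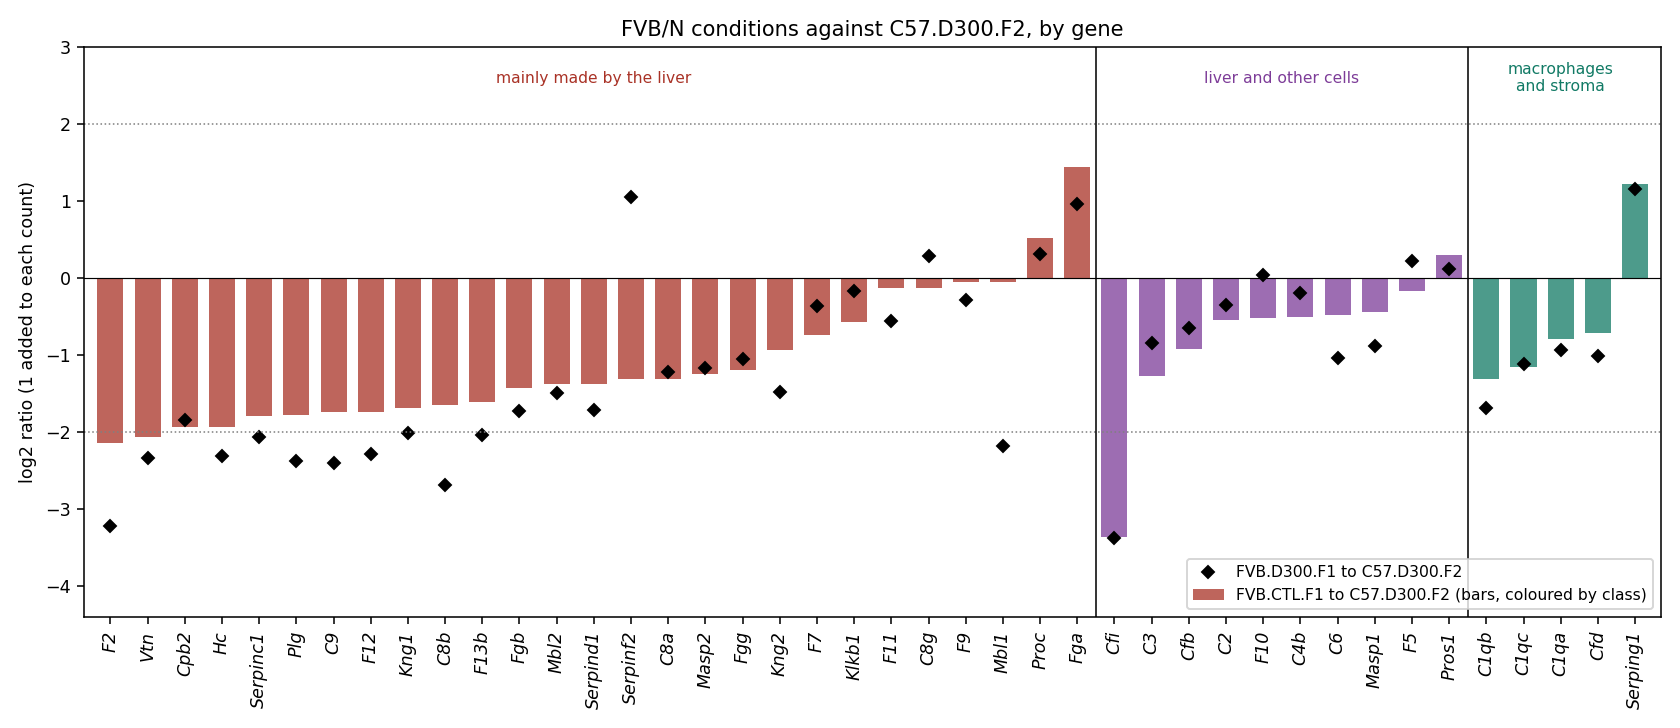
Log2 ratios (y axis, 1 added to each count) of FVB.CTL.F1 (bars, coloured by class) and FVB.D300.F1 (black diamonds) to C57.D300.F2 for each of the 42 genes on the x axis. Dotted lines mark 2 log2 units, and both ratios share the C57.D300.F2 value. Cfi lies at -3.36 and -3.37, Fga at 1.45 and 0.96, and Serping1 at 1.23 and 1.16.

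The 3 conditions of newly made libraries could be compared among themselves. FVB.CTL.F1 was lower than C57.D300.F2 past the threshold for 3 of 42 genes (F2, Vtn and Cfi) and higher for 0, beside background shares of 2.5% and 0.707% of 16969 genes. FVB.D300.F1 was lower for 11 genes and higher for 0, beside 2.02% and 1.58% of 17122 genes. These 11 were Cfi and 10 of the liver class (F13b, F2, F12, Kng1, Serpinc1, Plg, Hc, C8b, C9 and Vtn). With 10 counts added or a minimum of 100 counts, 3 genes were past the threshold in place of 11, and for FVB.CTL.F1 10 counts added left 1 gene and scaling to equal totals gave 5. Strain, generation and exposure differ together between these conditions. The liver class was lower in FVB/N in 25 of 27 genes for FVB.CTL.F1 (median -1.37) and in 23 of 27 for FVB.D300.F1 (median -1.71), beside all-gene medians of -0.0041 and -0.010. The hepatocyte markers had medians of -1.92 and -2.58 in the same comparisons.

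DEHP against vehicle within the F1 of C57BL/6J moved none of the 42 genes past the threshold, with 0 lower and 0 higher beside background shares of 0.256% and 0.0357% of 16825 genes. The liver class was lower in 22 of 27 genes, with a median log2 ratio of -0.40 (range -1.25 to 0.69), beside a median of -0.011 over all genes. C8b (-1.25) and C9 (-1.06) were the only genes that differed by more than 1 log2 unit. Of the fibrinogen chains, Fga was 1.49-fold, Fgb 1.83-fold and Fgg 1.85-fold lower, each by less than the model SD of the difference. That SD was exceeded by 8 of the 42 genes (F9, Mbl1, Mbl2, C8b and C9 as lower, F11, C1qc and Masp1 as higher), beside 1106 of 16825 genes. The macrophage and stroma class had a median of 0.30 and the mixed class of 0.13. Masp1, from 123 to 235 counts, was the gene with the highest ratio (0.93). Hepatocyte markers had a median of -0.18, with 6 of 9 lower, and fibroblast markers of 0.50, with 6 of 6 higher.

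**Figure D5:**
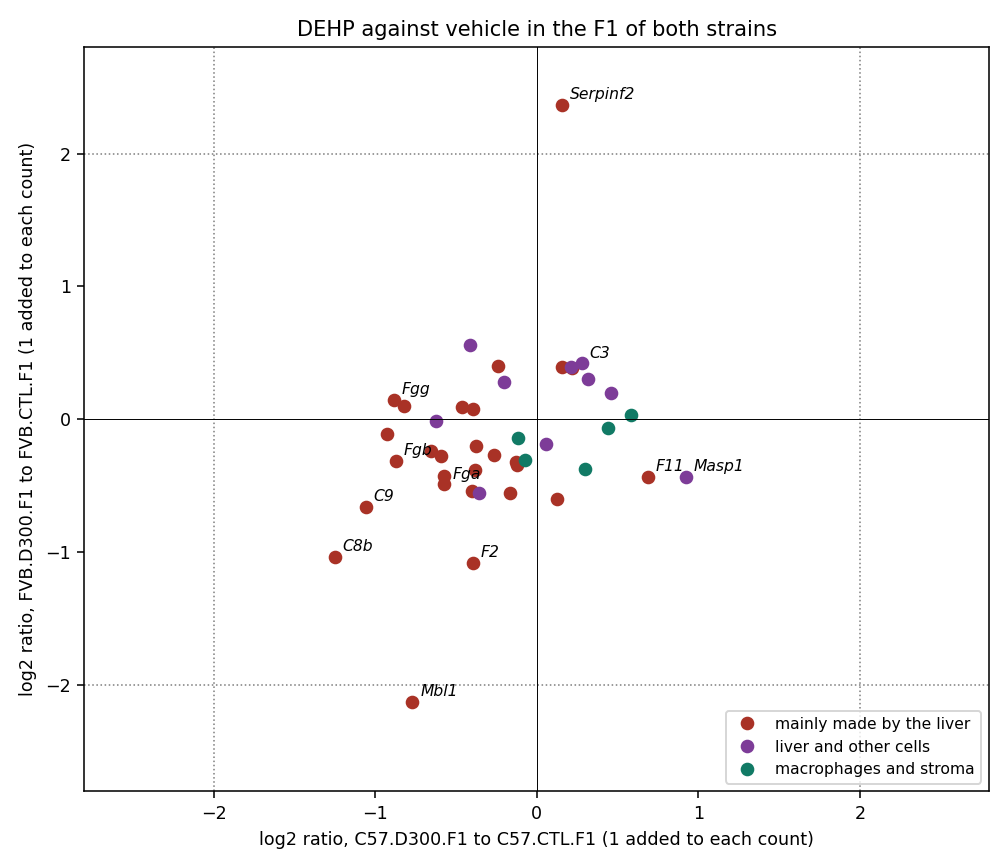
Log2 ratio of DEHP to vehicle (1 added to each count) in the F1 of C57BL/6J (x axis) and of FVB/N (y axis) for the 42 genes, coloured by class, with dotted lines at 2 log2 units. Serpinf2 at 0.16 and 2.37 is the only gene past the threshold in either strain, since Mbl1, at -0.77 and -2.12, had under 10 counts in FVB/N.

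In FVB/N, DEHP against vehicle left 1 of 42 genes past the threshold as higher and 0 as lower, beside 0.662% higher and 0.0182% lower of 16471 genes. The gene was Serpinf2, with 11.4 counts in FVB.CTL.F1 (model SD 5.605) and 63.0 in FVB.D300.F1 (31.1), a 5.52-fold higher value. Its difference of 51.6 counts had a model SD of 31.6, and both values lay below the 765 and 852 counts of the C57BL/6J F1 conditions. With 10 counts added or a minimum of 100 counts, 0 of the 42 genes were past the threshold. F2 (-1.08) and Mbl1 (-2.12, from under 10 counts) were the other members that differed by more than the model SD, which makes 3 of 42 beside 931 of 16471 genes. Of the 42 genes 33 had at least 10 counts in 1 of the FVB/N conditions, and the liver class had a median of -0.31 with 19 of 27 lower, beside an all-gene median of 0.0046. Hepatocyte markers had a median of -0.63, with 8 of 9 lower and 5 of 9 beyond the model SD. The difference between the strains in this response was 2.21 log2 units for Serpinf2 and ranged from -1.36 (Masp1) to 1.03 (Fgg) for the other genes. In all 21 genes were lower with DEHP in both strains, 8 were higher in both, and 13 differed in sign, with 40 genes within 1 log2 unit in C57BL/6J and 38 in FVB/N. The epididymal marker Gpx5 had 71.4 counts in vehicle FVB/N and 24121 in exposed FVB/N, so these conditions also differed in epididymal RNA, and its part in the Serpinf2 value was not tested.

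The order of the liver-made factors by count was similar in the conditions compared. Across the 27 genes Spearman's rho was 0.96 between C57.CTL.F1 and C57.D300.F1, 0.84 between C57.CTL.F1 and C57.D300.F2, 0.88 between C57.D300.F2 and FVB.CTL.F1, and 0.91 between the FVB/N conditions. These are correlations across genes, which are not independent replicates and differ in length. Per kb of transcript, Fgg had the highest level of the 42 genes in C57.CTL.F1 (16629 counts per kb), followed by Fga (5872) and C3 (3526). In C57.D300.F2 the order was C3 (2370.4), Serping1 (2250.5) and Cfd (823), and in FVB.CTL.F1 it was Serping1 (5287), C3 (987) and Fga (554). The Cfd count was below its own model SD, so its place is uncertain. The liver class thus held 6 of the 8 highest levels per kb in C57.CTL.F1 and 1 of the 8 highest in C57.D300.F2.

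Of 54 further genes of coagulation and complement, 12 were past the threshold as lower in C57.D300.F2 than in vehicle F1 and 0 as higher, beside 3.61% and 0.584% of all genes (Tfpi2, Serpina10, Serpinb2, Proz, Hrg, Hpn, C4bp, Colec10, Colec11, Vsig4, Cpn1 and Cpn2), with a median of -0.35 over the 54. Several are liver products, such as Hrg (histidine-rich glycoprotein) with 2251 counts in vehicle F1 and 70.2 in C57.D300.F2. Others differed little between the conditions. Tissue factor F3, which starts clotting outside vessels, had between 59.5 and 108 counts in all conditions, and Vwf, made by endothelium, had between 149.6 and 187 counts. C7, the terminal component made outside the liver, had 2994 counts in vehicle C57BL/6J F1, 4832 after DEHP, 5508 in C57.D300.F2, 3535 in vehicle FVB/N and 2837 in exposed FVB/N. It therefore did not share the low levels of C6, C8 and C9. Serpine2 (protease nexin 1), Anxa2, F13a1 and Gas6, further genes with at least 1000 counts in 1 condition and no difference past the threshold, had 4202 to 5895, 2060 to 3083, 436 to 1287 and 738 to 1487 counts.

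Between FVB.CTL.F1 and C57.CTL.F1, 10 of the 54 were lower and 2 higher past the threshold, beside 8.88% and 1.44% of all genes. The higher ones were Plau (urokinase, an activator of plasminogen), with 469 and 1883 counts, and C1s2, with 3.28 and 33.4 counts. C1s2 and C1rb are near copies of C1s1 and C1ra, and their separate counts are uncertain. Clu (clusterin), an inhibitor of the membrane attack complex with high expression in the epididymis, had 12898, 12996, 32443, 41657 and 42154 counts. Within FVB/N, 2 of the 54 were higher with DEHP past the threshold, beside 0.662% of all genes. They were C4bp (C4b-binding protein), with 1023 and 5452 counts, and Serpina10, with 2.23 and 12.7. The C4bp difference of 4428 counts was below its model SD of 5430. Within the F1 of C57BL/6J, 0 of the 54 passed it in either direction.

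Across the 5 conditions, genes among the 10 whose counts followed the summed liver class most closely were Vwa8, Nudt7, Acsl5, Iqgap2, Acat3, Hsd17b4, Rgn, Cep128 and Gcdh. Their Pearson correlation with the sum was 0.998 to 0.999 over 5 values, among 1922 genes compared that were not members. With 5 values this is a description of likeness only.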

How the data were processed

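All-RNA-seq libraries of mouse sperm RNA, 25 in 5 conditions, were clipped, mapped to mm10 with TopHat (strand-specific option) and quantified with Cuffdiff by the authors. The annotation release and Cuffdiff options are not given in the sources used here. Each deposited value is a signal: an estimated fragment count for a gene in 1 condition, over 5 libraries, scaled by Cuffdiff with no division by length. Other deposited columns, of another unit, hold the Cuffdiff model's variance for that count, and its square root is the model SD. The 71 genes with a failed estimate in at least 1 condition were treated as missing, and none of them is a member.

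Log2 ratios (1 added to each count), genes past 2 log2 units with at least 10 counts, medians, sums and percentages were computed with Python 3.11.15, numpy 2.4.6 and pandas 2.3.3. Folds used a floor of 3 counts, which covers counting error only. With 1 pooled value per condition, no test, p-value, SD between libraries or paired fit was made.

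The 42 members, their classes by textbook knowledge, the marker lists and the 54 other pathway genes were chosen with earlier results of these data known. All members may be named. Pathway genes were named if they held at least 1000 counts in 1 condition or were past the threshold, and F3 and Vwf were added after their values were seen. The 10 genes most like the liver class had the highest Pearson correlation among genes with at least 1000 counts. The results for some genes that these rules name are not reported here. Coordinates and transcript lengths are from GENCODE M21 on GRCm38 (mm10), and promoter windows from RefSeq. Alternatives were 3 other scalings, 0.1 or 10 as the pseudocount, a minimum of 100 counts or no minimum, 1 log2 unit as the threshold, the model SD as a further limit, and parts of the macrophage and stroma class. The procedure was tested on simulated data.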

Additional observations from a re-analysis of the deposited data

How the results depend on the processing

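No paired analysis was possible because each condition has 1 pooled value. For the same reason no library could be left out. Of 192 medians of classes recomputed under the alternatives 184 moved by less than 0.5 log2 units and 8 by more, and of 86 counts of genes past the threshold 72 stayed within 1.5 times and 14 did not. No alternative changed the count for C57.D300.F2 or FVB/N against the C57BL/6J F1 conditions by more than 1.5 times. With 10 counts added, the liver-class median was -5.76 for FVB.CTL.F1 against C57.CTL.F1, -5.28 for FVB.D300.F1 against C57.D300.F1 and -1.01 for FVB.D300.F1 against C57.D300.F2. With Serping1 and Cfd alone, the median of the macrophage and stroma class was 0.31 for C57.D300.F2 against C57.D300.F1, 0.76 for FVB.CTL.F1 against C57.CTL.F1, 0.39 for FVB.D300.F1 against C57.D300.F1, and 0.26 and 0.077 for FVB.CTL.F1 and FVB.D300.F1 against C57.D300.F2. These are of the opposite sign to the medians of all 5 genes, where the other 3 are the C1q chains. Each includes Cfd, whose differences cannot be read. For C57.D300.F2 against C57.D300.F1, Serping1 was at -0.081 and Cfd at 0.71, so the positive sign there comes from Cfd. With the C1q chains alone, the median of the macrophage and stroma class was -0.24 for C57.D300.F2 against C57.CTL.F1. With a minimum of 100 counts the liver-class median for DEHP in FVB/N was 0.091. Both are also of the opposite sign.

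A threshold of 1 log2 unit gave 2 genes for DEHP against vehicle in C57BL/6J, 3 in FVB/N, and 24 and 25 for FVB.CTL.F1 and FVB.D300.F1 against C57.D300.F2. Serpinf2 was no longer past the threshold with 10 counts added or with a minimum of 100 counts, which left 0 genes for DEHP in FVB/N, and 2 genes passed it with no minimum. FVB.CTL.F1 against C57.D300.F2 gave 5 genes after scaling to equal totals and 1 with 10 counts added, and FVB.D300.F1 against C57.D300.F2 gave 3 genes with 10 counts added or a minimum of 100 counts. The difference of the DEHP response between strains was past 2 log2 units for 0 genes with equal totals or with 10 counts added, and for 2 genes with 0.1 added. Depth limits the liver class in FVB/N, where 9 of 27 genes had under 10 counts in both conditions, and the model SD of Cfd exceeded its count in every condition.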

Other observations

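Regulators of complement on the cell surface were not among the 42 genes. Of these, Cd46 was low in every condition, and Cd59a and Cd55 differed between the FVB/N and C57BL/6J conditions. Cd46, which in rodents is found mainly on sperm, had 14.3 counts in vehicle C57BL/6J F1, 21.4 after DEHP, 26.4 in C57.D300.F2, 20.5 in vehicle FVB/N and 17.4 in exposed FVB/N. Cd59a, an inhibitor of the membrane attack complex, had 191, 153, 92.7, 336 and 293 counts, so that both FVB/N values exceeded every C57BL/6J value. Cd55, which dissociates the C3 convertases, had 162, 183, 122, 58.5 and 59.3 counts, with both FVB/N values below every C57BL/6J value. Neither gene was past 2 log2 units between FVB/N and C57BL/6J F1 conditions of the same exposure. The receptors of the complement fragments C3a and C5a, C3ar1 and C5ar1, which leukocytes carry, had 87.2, 145, 133, 55.2 and 56.3 and 96.9, 96.4, 105, 52.4 and 49.0 counts in the same order. Both were lowest in FVB/N, as were the macrophage markers. These genes were chosen after their values were seen.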
